A study of Mus musculus with 8 samples.

Results

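Ovol2, Ehf and Foxn1 encode transcription factors of skin epithelium, and their RNA was followed in the skin of near naked hairless mutant mice set against wild type mice. The 3 genes were found by their RefSeq accessions in the table of log ratios, 1 probe each, among 6585 named genes and 21766 probes in all. All 3 passed the filter on missing values, as did 3779 genes. They were picked with their log ratios already known, so these ratios are given as a description and carry no test.

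The samples were skin RNA of near naked hairless mutants and of wild type mice, all aged 7 days, on 8 arrays of 2 colours that each hold both RNAs. The near naked hairless mouse carries an allele of the hairless gene Hr, as background, and the labels do not give its zygosity, the strain or the sex. A single litter gave 5 biological replicates, fewer than the arrays, so some arrays shared an animal and p-values over arrays are too small. No label says which animal went on which array. Mutant RNA was labelled with Cy5 on arrays 2, 4, 6 and 7, and with Cy3 on arrays 1, 3, 5 and 8.

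All values are ratios of mutant over wild type on a log scale taken as log2. No source used here states the base or the direction. The direction is called likely because the channel named as the sample comes first on each array and the mutant comes first in the design, and all signs would turn if it ran the other way. The table was read as already turned for the dye swap. The replicate spots of Gapdh, a gene of glycolysis, correlated below 0 in 16 of 16 pairs of arrays of opposite orientation (median r = -0.45), the sign that a dye difference between spots gives in a turned table. Over all probes the ratios were hardly alike across orientations, with a median r of -0.02 and 10 of 16 pairs below 0, against a median r of 0.49 over 12 pairs of the same orientation. Values were present for 41.3% to 88.3% of rows, fewest on arrays 3, 2 and 1, and the SD of an array ran from 0.57 to 1.60. The table holds no level of any RNA, so the tissue could be checked only by which markers had a ratio: Krt1 and Krt31, keratins of the suprabasal epidermis and the hair cortex, had one on 7 arrays each, while Krt5, Krt14 and Krt10 were not among the named rows with a value.

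As background, the epidermis and the hair follicle are built by keratinocytes whose fate is set by a small number of transcription factors. Ovol2 is a zinc finger repressor that holds cells in the epithelial state, in part by repressing Zeb1, a driver of the mesenchymal state. Ehf is an ETS factor, of the epithelial branch that also holds Elf3 and Elf5, and is active in differentiating epithelia. Foxn1 is the forkhead factor that is lost in the nude mouse, and it is needed for keratinocyte differentiation and for the keratins of the hair shaft.

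The stretches of 250 bases before an annotated start of Ovol2 and of Foxn1 are shown because they are the start regions of 2 of the genes described, read for the letters that the 3 factors and their opponents bind. They come from RefSeq on GRCm38.p6, which had a window for 2 of the 3 genes, and both lie on the minus strand, at chr2:144331363-144331612 and chr11:78386609-78386858. In both genes the annotation also places part of the gene before the start used. Capitals mark the ETS core GGAAG on the strand shown.
Ovol2: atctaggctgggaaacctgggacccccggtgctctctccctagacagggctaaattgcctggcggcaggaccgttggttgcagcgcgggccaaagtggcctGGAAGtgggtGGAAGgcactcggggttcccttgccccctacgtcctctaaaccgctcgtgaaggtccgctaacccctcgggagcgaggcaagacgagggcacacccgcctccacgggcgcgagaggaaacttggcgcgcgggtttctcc
Foxn1: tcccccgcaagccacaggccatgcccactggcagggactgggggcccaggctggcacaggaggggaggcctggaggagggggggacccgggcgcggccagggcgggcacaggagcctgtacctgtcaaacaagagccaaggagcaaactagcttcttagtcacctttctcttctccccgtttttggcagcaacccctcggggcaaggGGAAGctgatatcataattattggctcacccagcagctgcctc
The Ovol2 window held GGAAG at 2 places, starting 149 and 139 bases before the start, and the Foxn1 window held it once, starting 43 bases before. Searched on both strands, GGAAG occurred in 64.1% of 32851 such windows. CCGTTA, the letters bound by Ovol factors, occurred in 2.18% of windows, GACGC, bound by Foxn1, in 22.6%, and CACCTG, bound by Zeb and Snai factors, in 17.2%. None of these 3 was in either window. No marked site overlaps another of these motifs. GC content was 65.2% in the Ovol2 window and 63.2% in the Foxn1 window, against a median of 52.4% over all windows.

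Ehf was below 0 on every array. Its log2 ratios were -1.41, -2.56, -1.73 and -1.17 on arrays 2, 4, 6 and 7, with the mutant in Cy5, and -1.34, -1.38, -1.57 and -0.80 on arrays 1, 3, 5 and 8, with the mutant in Cy3. Array 4 was the lowest and array 8 the highest, and the values of both orientations overlapped. The mean was -1.50 ± 0.51 (SD, n = 8 arrays), or 2.82-fold lower in the mutant if the logarithm has base 2. A natural logarithm would make it 4.46-fold. A logarithm of base 10 would make it 31.3-fold, but that base is unlikely, since values ran as far as -8.38 on array 3 and 9.57 on array 8.

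Against the other probes of its array, Ehf lay between percentiles 0.704 and 17.7, with a median at 5.41. It was lowest in rank on arrays 4, 5 and 6, at percentiles 0.757, 0.704 and 0.938, and highest on arrays 2 and 8, at 17.1 and 17.7. Of 1613 genes with a value on all 8 arrays, 39 (2.42%) were below 0 on all of them, and Ehf was the 1 gene whose highest value was no higher than -0.80. That bound is the highest value of Ehf itself, and Ehf was picked with its ratios known, so this is a description only.

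Ovol2 had a mean close to that of Ehf and a wider spread. Its log2 ratios were -2.27, -1.62 and -3.11 on arrays 2, 6 and 7, with the mutant in Cy5, and -1.31, 0.50, -0.78 and -1.36 on arrays 1, 3, 5 and 8, with the mutant in Cy3. Array 4 had no value. Array 3, the array with the fewest values, was the 1 of 7 above 0, and each array with the mutant in Cy5 was lower than each array with it in Cy3. The fitted ratio was -1.54 ± 0.27 (SE, 7 arrays), a 2.90-fold lower level on the log2 reading, and the plain mean was -1.42 ± 1.13 (SD, n = 7).

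Within arrays Ovol2 lay at percentile 0.0971 on array 7, at 62.9 on array 3 and at a median of 5.60. Without array 3 its fitted ratio was -1.74. On the 7 arrays they share, Ovol2 was the higher on 4 and the lower on 3, with a mean difference (Ovol2 minus Ehf) of -0.08 ± 1.22 (SD).

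Foxn1 split by dye. Its log2 ratios were 1.70, 0.70, 0.85 and 0.92 on arrays 2, 4, 6 and 7, with the mutant in Cy5, and -0.13, -0.04, -0.10 and -0.11 on arrays 1, 3, 5 and 8, with the mutant in Cy3. The orientations did not overlap, with means of 1.04 ± 0.45 and -0.10 ± 0.04 (SD, n = 4 each). The fitted ratio of 0.47 ± 0.17 (SE, 8 arrays) is thus the mean of a group of arrays near 1 and a group near 0. Foxn1 lay between percentiles 81.3 and 92.0 of its array with the mutant in Cy5, and between 37.9 and 51.3 with it in Cy3.

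**Figure D1:**
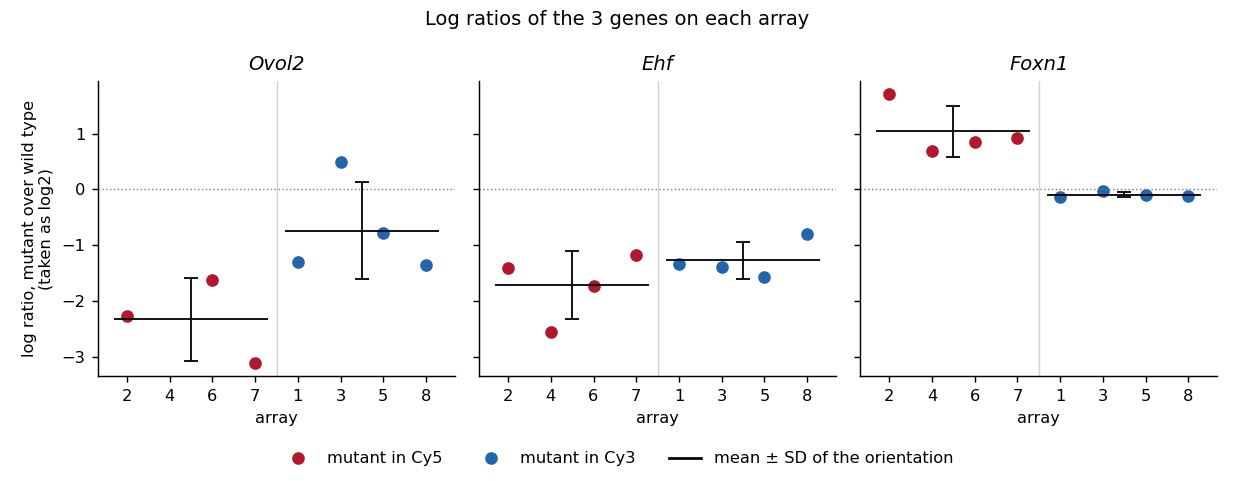
Log2 ratios of mutant over wild type (vertical axis) of Ovol2, Ehf and Foxn1 on each array (horizontal axis), red with the mutant in Cy5 and blue with it in Cy3. Lines and bars are the mean and SD of an orientation. Ehf is below 0 on all 8 arrays, Ovol2 on 6 of 7, and Foxn1 is above 0 on the 4 arrays with the mutant in Cy5 alone.

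The part of a ratio that follows the dye orientation was tested over all genes. It was taken as the ratio with the mutant in Cy5 minus that with the mutant in Cy3, in limma with adjustment over all genes. By this test 66 of 3779 genes (1.75%) had a dye part past the threshold of 0.05, 62 (1.64%) above 0 and 4 (0.106%) below. None of the 3 genes did. These 3 genes were selected on their log ratios, and the dye part is made from those same ratios. For them its intervals and p-values are therefore a description and not an independent test. The dye part was 1.14 ± 0.34 (SE) for Foxn1 (95% interval 0.39 to 1.89, limma adjusted p = 0.0741), -1.60 ± 0.55 for Ovol2 (-2.80 to -0.39, adjusted p = 0.0902) and -0.44 ± 0.39 for Ehf (-1.30 to 0.41, adjusted p = 0.450). Without array 8 both Foxn1 (1.13, adjusted p = 0.0471) and Ovol2 (-1.80, adjusted p = 0.0470) passed.

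A split like that of Foxn1, above 0 on all 4 arrays with the mutant in Cy5 and below 0 on all 4 others, was seen in 158 of the 1613 genes with a value on all arrays (9.80%), and the opposite split in 56. If the table were instead read as Cy5 over Cy3, the fitted ratios of mutant over wild type would be -0.80 for Ovol2, -0.22 for Ehf and 0.57 for Foxn1. All 3 keep their sign under that reading, and Ehf is then nearest to 0. Read as Cy3 over Cy5, these 3 signs would turn.

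**Figure D2:**
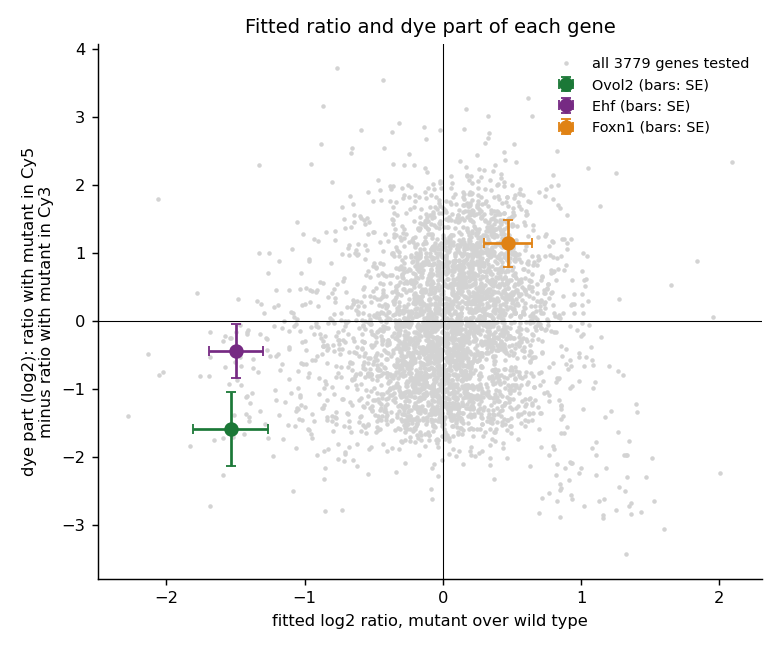
Fitted log2 ratio of mutant over wild type (horizontal axis) and dye part (vertical axis) of each gene tested, with SE bars for Ovol2, Ehf and Foxn1. Ovol2 at -1.54 and Ehf at -1.50 lie at the low edge of the ratios, and Foxn1 combines a ratio of 0.47 with a dye part of 1.14.

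Among all 3779 genes tested, 25 (0.662%) rose and 106 (2.8%) fell in mutant skin by limma at an adjusted p under 0.05, against 128 and 222 after quantile normalization. The median fitted ratio was 0.05, and Gapdh stood at 0.17 ± 0.17 (SE, limma adjusted p = 0.610). Without arrays 1, 2, 4, 5 and 6 in turn, 53, 85, 82, 72 and 60 genes passed in place of 131. Without arrays 3, 7 and 8 in turn, 129, 91 and 130 passed. Ranked from the lowest ratio, Ovol2 was number 21 and Ehf number 27 of the 3779, and Foxn1 stood at percentile 86.3.

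The 4 lists of epidermal, hair follicle, ETS and forkhead factors held 66 genes tested of 150, with a median ratio of 0.08. Of these, 1 was higher (1.52%, against 3.47% of all genes in either direction), none was lower, and the lowest was Vdr at -0.97, which rested on array 2 (-0.47 without it). The 1 that rose was Gli3, a factor of the Hedgehog pathway, at 1.27 ± 0.19 (SE, above 0 on 8 of 8 arrays, limma adjusted p = 0.00625), and it passed whichever array was left out. Read as Cy5 over Cy3, it would be at 0.16 (adjusted p = 0.586).

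From Gli3 on, the genes called in the gene lists number 14 of 153 tested (9.15%, against 3.47% of all genes), in lists drawn up with earlier results known. None of the 14 calls held when the table was read as Cy5 over Cy3, so each depends on the table being already turned, and 8 ended without the dye term. The Cy5 over Cy3 reading tests the dye part of a ratio in place of its mean, and of all 131 calls only 3 held under it.

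Of 26 epidermal factors tested, 16 were above 0, with a median of 0.19, and none passed. The largest ratios were those of Jund, an AP-1 subunit, at 1.36, and of Prdm1, a repressor of the differentiating epidermis, at 0.92 (adjusted p = 0.385 and 0.225, limma). Both rested on array 8, and without it Jund was at 0.23 and Prdm1 at 0.35. Of 16 hair follicle factors 8 were above 0. Beside Gli3 they included Vdr, the vitamin D receptor, at -0.97 and Rora, a nuclear receptor, at 0.94, neither past the test.

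The hairless gene Hr, a corepressor of nuclear receptors and the locus of the mutant, had values on 6 arrays and did not pass the filter. It averaged -0.17 ± 0.64 (SD, n = 6) and lay above 0 on 3 arrays. Whether its probe covers the altered part of the gene is not known here, so it checks no label.

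The ETS family, to which Ehf belongs, had 12 members tested. None passed, 8 were above 0 and the median was 0.31, with Spic, a factor of macrophages, at 0.83 and Etv4 at 0.56. Spic was at 0.11 without array 3 and at 1.31 without array 8, and Etv4 at 0.37 without array 8. No other tested ETS factor was below -0.34, the ratio of Elf5. Of the ETS genes that missed the filter, Spdef had the lowest mean, -0.99 ± 1.14 (SD), and was below 0 on 5 of 6 arrays. Etv6 had the highest, 0.46 ± 0.55 (SD), and was above 0 on 4 of 4. Both were chosen after their values were seen. Elf3 and Elf5, the closest relatives of Ehf, were chosen for a closer look after their values were seen.

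Elf3 was above 0 on all 8 arrays, at 0.54, 0.19, 0.27 and 0.26 on arrays 2, 4, 6 and 7 and at 0.11, 0.99, 0.11 and 0.85 on arrays 1, 3, 5 and 8, with a fitted ratio of 0.42 (adjusted p = 0.222, limma). Ehf was the lower of the pair on 8 of 8 arrays, by a mean (Ehf minus Elf3) of -1.91 ± 0.46 (SD). Elf5 was lowest on array 3 at -1.34 and highest on array 7 at 0.08, and its fitted ratio was -0.34. Ehf was below it on 7 of 7 shared arrays, by -1.13 ± 0.81 (SD), with the values of array 3 nearly equal. No test is given for these differences, because Ehf was picked for its ratio.

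**Figure D3:**
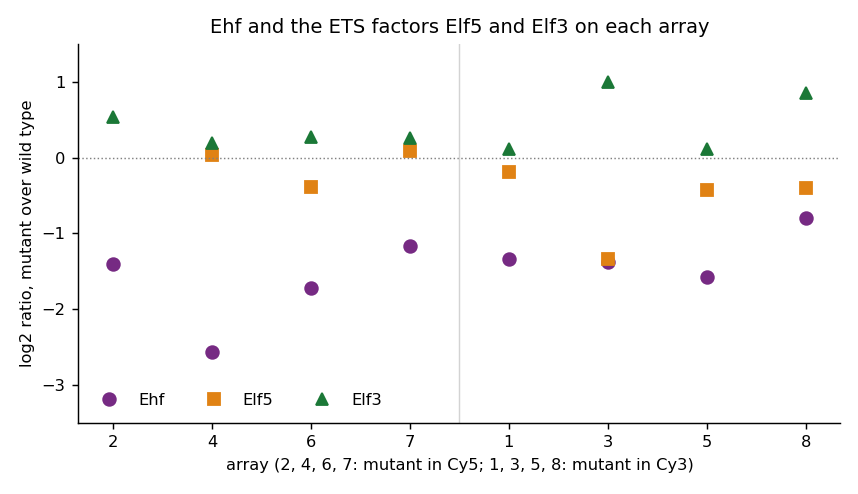
Log2 ratios of mutant over wild type (vertical axis) of Ehf, Elf5 and Elf3 on each array (horizontal axis). Ehf is below 0 and Elf3 above 0 on all 8 arrays, and Elf5 lies between them on the 7 arrays that measured it.

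Relatives and known targets of Ovol2 were thinly measured, and these were also chosen after their values were seen. Ovol1, its paralogue in epidermis, had 4 values, 0.52, 0.16 and 0.35 on arrays 4, 6 and 7 and -0.29 on array 5. On the 3 arrays that hold both, Ovol2 was the lower each time. Zeb1 and Zeb2 had 5 values each, with means of -0.32 ± 0.81 and 0.04 ± 0.61 (SD), and Cdh1, which encodes the adhesion protein E-cadherin, had 5 with a mean of -0.15 ± 0.99. None of these 4 passed the filter, and their values lay on both sides of 0.

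Genes of the epithelial and the mesenchymal state were read because Ovol2 is known to act between them. Of 13 epithelial junction and identity genes tested of 36, none passed, 7 were below 0 and the median was -0.11, with Rab25, a trafficking GTPase of epithelia, at -0.58 and Krt19 at -0.46. Of 17 mesenchymal genes tested of 34, 2 were higher (11.8%, against 0.662% of all genes), none was lower and the median was 0.07. Vim, the intermediate filament protein of mesenchyme, was at 1.17 ± 0.19 (SE, above 0 on 8 of 8 arrays, limma adjusted p = 0.00889), and Fbn1, a fibrillin gene, at 0.75 ± 0.19 (above 0 on 6 of 8, adjusted p = 0.0496). Vim passed whichever array was left out but not without the dye term (adjusted p = 0.0554), where Fbn1 had an adjusted p of 0.204. Fbn1 passed only without array 3 (adjusted p up to 0.135 otherwise). Ccn2 at 1.84 and Mmp9 at -0.95 did not pass, and Mmp9 was at -1.59 without array 1 and at -0.45 without array 8. Read as Cy5 over Cy3, Vim would be at -0.71 and Fbn1 at 0.64 (adjusted p = 0.0609 and 0.0680).

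The forkhead family, to which Foxn1 belongs, had 15 members tested. None passed, 8 were below 0 and the median was -0.03, with Foxc1 at -0.76 and Foxj2 at -0.59. Foxn1 at 0.47 stood below Foxm1, a factor of dividing cells, at 0.53, the highest of the family tested. Of the forkhead genes that missed the filter, Foxi1 had the lowest mean, -1.78 ± 0.89 (SD), and was below 0 on all 5 arrays that measured it. Foxa1 had the highest, 0.96 ± 1.41 (SD), and was above 0 on 4 of 5, at 3.44 on array 8 and at most 0.56 elsewhere. Both were chosen after their values were seen.

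Structural genes of the hair shaft are a class that includes genes needing Foxn1. Of 12 tested of 38, 4 were lower (33.3%, against 2.8% of all genes tested) and 11 were below 0, with a median of -0.81, against 0.05 over all genes. The 4 were Krtap15 at -1.33, Krtap14 at -1.28, Krt31 at -1.27 and Krtap9-1 at -1.26 ± 0.22 (SE, below 0 on 8 of 8 arrays, limma adjusted p = 0.00991). Krtap9-1 passed whichever array was left out. Krt31 did not pass without array 5 (adjusted p = 0.0514), Krtap14 passed only without arrays 3 or 8, and Krtap15 only without arrays 5 or 8. Krtap1-5 at -1.46 and Krtap9-3 at -1.04 were not past the test. Read as Cy5 over Cy3, Krtap15 would be at 0.50, Krtap9-1 at 0.35, Krt31 at -0.14 and Krtap14 at -0.13. The low ratios of hair shaft genes in these arrays were known when this list was drawn up.

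Of 18 signals of the hair matrix tested of 34, 1 rose and 1 fell (5.56% each, against 0.662% and 2.8% of all genes). Sfrp1, a secreted Wnt antagonist, was at 1.20 ± 0.25 (SE, above 0 on 7 of 7 arrays) and Fgf5, which ends hair growth, at -1.11 ± 0.20 (below 0 on 7 of 7, limma adjusted p = 0.0251 and 0.0133). Sfrp1 passed only without arrays 1 or 5 (up to 0.0837 otherwise), and Fgf5 lost its call without arrays 1 and 6 (0.0524 at most). Bmpr1a, a BMP receptor of the follicle, at -0.97 and Wnt5a at 0.64 did not pass. Bmpr1a was at -0.62 without array 2, and Wnt5a at 0.02 without array 8 and 1.06 without array 3. Read as Cy5 over Cy3, Sfrp1 would be at -0.33 and Fgf5 at -0.08.

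**Figure D4:**
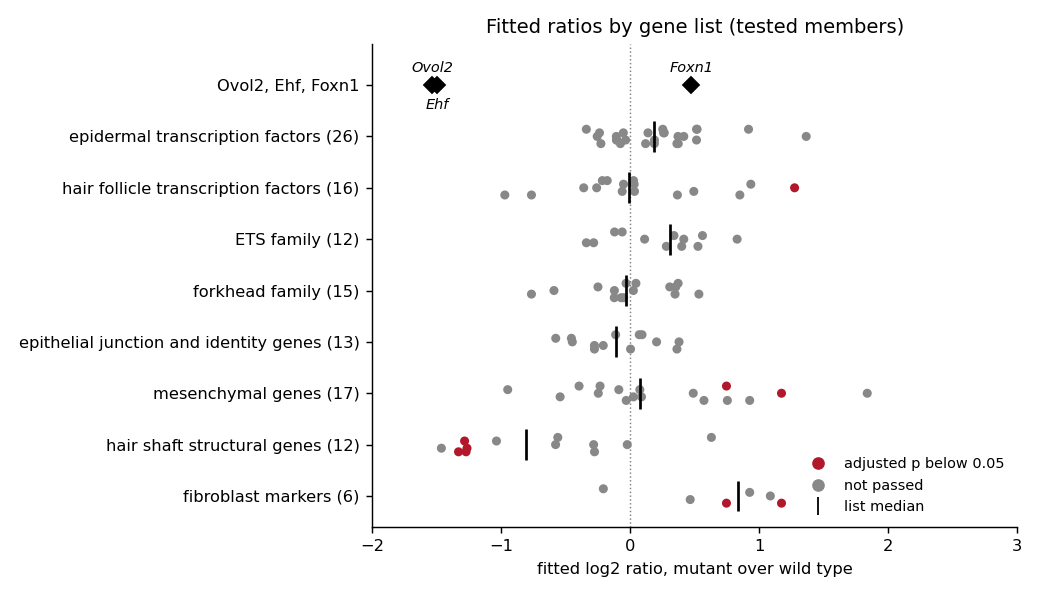
Fitted log2 ratios of mutant over wild type (horizontal axis) of Ovol2, Ehf and Foxn1 and of the tested members of 8 gene lists (rows, with the number tested), red where the adjusted p is below 0.05. Black bars are list medians. Ovol2 and Ehf lie below every tested member of the 4 transcription factor lists, whose lowest is Vdr at -0.97 (-0.47 without array 2). Factors that missed the filter are not shown, among them Foxi1 with a mean of -1.78 on 5 arrays.

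Markers of the cell types of skin were read beside these genes, because Ovol2, Ehf and Foxn1 are made by keratinocytes, and in bulk skin fewer cells of a type and less RNA per cell cannot be told apart. Of 9 fibroblast markers 6 were tested, and 2 were higher (33.3%, against 0.662% of all genes), the same Vim and Fbn1 as above. In all, 5 of the 6 were above 0, with a median of 0.84. The median over the fibroblast markers with a value was above 0 on 7 of 8 arrays, from -0.30 to 1.40. Pdgfra at 1.09 (0.49 without array 8) and Sparc at 0.93 did not pass.

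Keratinocyte markers lay on both sides of 0. Of 7 basal markers 1, Col17a1, was tested, at 0.06, with a dye part of 1.72 past the test (limma adjusted p = 0.0479). Of 10 suprabasal markers 4 were tested, with a median of 0.36, and 1 was higher (25%, against 0.662% of all genes). Krt1 was higher, at 1.30 ± 0.27 (SE, above 0 on 7 of 7 arrays, limma adjusted p = 0.0241), and lost the call without arrays 1, 5 and 6 (0.103 at most). Ivl, a protein of the cornified envelope, was at -1.06 and Dsc1 at 0.38 (0.06 without array 8). Krt1 would be at -0.40 with the table read as Cy5 over Cy3. The part of these cell types in the ratios of Ovol2, Ehf and Foxn1 was not tested.

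In the follicle, Krt31 was the 1 of 3 hair shaft markers tested that was lower (33.3%, against 2.8% of all genes). Krt35 was at 0.63 (0.11 without array 8) and Krt33a at -0.58. Krt71, an inner root sheath keratin, was lower at -0.79 (adjusted p = 0.0362, limma). It was the 1 of 3 sheath markers tested that passed (33.3%, against the same 2.8%), with Krt27 at -0.77 and Trps1 at -0.05. Krt71 passed in 1 of 8 fits without an array, that without array 3 (up to 0.139 otherwise). Krt71 would be at -0.22 with the table read as Cy5 over Cy3.

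Of the other cell types, Cfd, an adipocyte gene, was higher at 1.96 (adjusted p = 0.0102), the macrophage gene C1qb was lower at -1.37 (0.0141), and Mbp, the myelin basic protein gene, was lower at -0.90 (0.0342, all limma). Cfd passed whichever array was left out, C1qb did not pass without arrays 1, 5 and 6 (0.0604 at most), and Mbp passed only without arrays 3 or 4 (0.109 at most otherwise). Under the Cy5 over Cy3 reading Cfd would be at 0.02, C1qb at -0.35 and Mbp at -0.54 (adjusted p = 0.967, 0.356 and 0.108). Each was the 1 gene past the test of 3 adipocyte, 4 macrophage and mast cell and 3 nerve markers tested. These are shares of 33.3%, 25% and 33.3%, against 3.47% of all genes in either direction. Among the rest stood Car3 at -0.86, Lep at 0.43 (0.19 without array 8), Lyz2 at -0.74, Mcpt4 at 0.05 and S100b at -0.10. No marker of endothelium and blood (Pecam1 at -0.72 and Cdh5 at 0.70), skeletal muscle (Tnnt3 at -1.23) or melanocytes (Tyr at -0.50 and Pmel at 0.12) passed.

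The genes most like each of the 3 over the arrays were named by the root mean square difference of their log2 ratios, with at least 7 shared arrays. For Ehf these were Rnaseh2c (0.358), Hyal2, a hyaluronidase (0.362), Cct7, a chaperonin subunit (0.388), and the homeobox gene Nkx2-2 (0.504), each over 7 arrays and each below 0 on all of them, against a median of 1.82 over 2977 genes. Pearson's r with Ehf was 0.73, 0.79, 0.72 and 0.56.

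For Ovol2 the nearest were Afp, the alpha-fetoprotein gene (0.295), Xlr5c (0.382), Ankrd36 (0.385) and Ube2k, a ubiquitin-conjugating enzyme (0.419), over 7 arrays each, with r from 0.93 to 0.96. Afp, for example, had -3.40 on array 7 and 0.09 on array 3, the lowest and the highest arrays of Ovol2 as well. Among 1672 genes compared, Ehf was number 75 in likeness to Ovol2, at 1.13.

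For Foxn1 the nearest were Atp6v1c1, a proton pump subunit (0.170), Ctnna1, which encodes alpha-catenin (0.171), Tuba1a, a tubulin (0.195), and Prnp, the prion protein gene (0.198), over 7 or 8 arrays, with r from 0.96 to 0.99. All 4 were above 0 on the 4 arrays with the mutant in Cy5, and Prnp on array 8 (0.07) was their 1 value above 0 with the mutant in Cy3. These correlations describe replicate arrays that share animals and dye orientation, and carry no p.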

How the data were processed

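The deposited values are log ratios, read here as log2. How they were normalized, why values are missing and the base are not given in the sources at hand, and dyes were coupled by standard protocols, per the labels. No spot intensity was analysed here. The number of arrays, the animals they share and missing values limit the precision. Of 23232 rows, 864 blank, 275 buffer and 96 control oligonucleotide spots were left out, and 232 spots of Gapdh were averaged. Rows were named by accession without version (6747) or synonym (77) through RefSeq genes of GRCm38.p6, used for names and order, and 15173 were unnamed.

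Genes measured on 3 or more of 4 arrays in both orientations were fitted in limma 3.58.1 (R 4.3.3) with terms for the ratio and the dye (empirical Bayes, Benjamini-Hochberg adjustment over all 3779 genes, threshold 0.05), tested on simulated data. Fits without an array kept the same genes. The 3 genes, the 19 gene lists and the rules were chosen with earlier results of these data known. Named were, in each list, the genes past the test and the 2 largest other ratios, the 4 genes most like each of the 3 genes, Hr and Gapdh. Lists are described by counts and medians without a set test. Alternatives covered the dye term, the filter, centring, scaling, array weights, the reading of the table and each array.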

Additional observations from a re-analysis of the deposited data

Results flagged for a closer look

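Dixon's test for 1 array that stands apart was run over the arrays on 55 genes. These were Ovol2, Ehf, Foxn1, the genes named from the lists by rule, Hr and Gapdh. Other genes in the text were not examined, among them Elf5, Foxa1, Epcam and Wnt10b. Of the 55, 9 had such an array. Chance would give about 1 in 20, or 2.75, for genes not picked by ratio and arrays of equal spread. Here the SD of an array ran from 0.57 to 1.60 and genes were named in part for large ratios, so the 9 cannot be set against that number. Ovol2, Ehf and Foxn1 were not among the 9. Array 8 stood above the others for Jund (9.57, the next at 0.98), Krt35 (4.83), Pdgfra (3.98), Dsc1 (2.58) and Lep (1.46). Array 2 stood below the others for Vdr (-4.80, the next at -1.04), Bmpr1a (-3.45) and Pecam1 (-1.93). On array 1 Mmp9 was at 2.49, with no other array above -0.47.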

How the results depend on the processing

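Ovol2 and Ehf stayed below 0 and Foxn1 above 0 under every alternative run that gave a value. Without 1 array the fitted ratio ran from -1.74 to -1.34 for Ovol2, from -1.59 to -1.35 for Ehf and from 0.36 to 0.53 for Foxn1. Ovol2 has no value on array 4, so the filter on all 8 arrays gave none for it. Read as Cy5 over Cy3, Ehf moved to -0.22, and the ratios of Vim (-0.71), Krtap15 (0.50), Krtap9-1 (0.35), Sfrp1 (-0.33) and Krt1 (-0.40) changed sign. These are 5 of the 14 listed genes past the test, and none of the 14 passed under that reading. Of 37 other named genes 17 changed sign, among them Jund (-1.42), Spic (-1.06), Pdgfra (-0.49), Rora (-0.48) and Cdh5 (-0.47). Without the dye term 6 of the 14 passed. Dye parts of Ovol2, Ehf and Foxn1 are a description, since these genes were selected on their log ratios. The dye part of Foxn1 passed with values on all 8 arrays (1.14, adjusted p = 0.0399), with quantile normalization (1.13, 0.0351) and with array weights (0.98, 0.0154, all limma). Without 1 array it ran from 0.92 to 1.25 (adjusted p 0.0471 to 0.155), that of Ovol2 from -1.95 to -1.18 (0.0470 to 0.243) and that of Ehf from -0.63 to -0.16. The count of 131 genes past the test became 64 without the dye term, 81 of 1613 on all 8 arrays, 350 with quantile normalization, 206 with arrays scaled to 1 spread, 491 with array weights, 66 read as Cy5 over Cy3, and 53 to 130 without 1 array. With arrays 4 to 8 alone, chosen after seeing the data, it was 8. The share lower among them was 80.9%, against 63.4% with quantile normalization and 62.5% with array weights. Of 153 listed genes 14 passed, and under the same settings 6, 9, 27, 20, 30 and 2 did, with 5 to 14 without 1 array. With arrays 4 to 8 alone limma called 0 of 141 of them, with 32 at an unadjusted p below 0.05. Each log ratio is already a pair of mutant and wild type RNA within 1 array. No paired analysis was possible beyond that because the arrays form 1 group.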

Other observations

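The genes next to the 3 genes in the annotation order, up to 3 on each side, were seldom measured. Beside Ehf on chromosome 2, Apip had a mean log2 ratio of -0.07 ± 1.09 (SD, 8 arrays), Elf5 -0.38 ± 0.47 (7 arrays) and Cat, the catalase gene, -0.08 ± 0.56 (6 arrays), against -1.50 ± 0.51 for Ehf. Beside Foxn1 on chromosome 11, Unc119 had 0.07 ± 0.38 (8 arrays). The 6 neighbours of Ovol2 had no value among the named rows. These genes were chosen after the values of the 3 genes were seen.

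Epcam, an adhesion molecule of epithelial cells, did not pass the filter and was above 0 on all 5 arrays that measured it. Its values ran from 0.70 to 5.18, with the highest on array 8 and the next, 1.15, on array 4. Wnt10b, a signal that starts hair growth, was above 0 on all 6 arrays that measured it. Its values ran from 0.15 to 2.31, the highest on array 8 and no other above 0.45. Both were chosen after their values were seen.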
